A study of Homo sapiens with 2 samples.

Results

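The genes described here encode the nuclear-made subunits of respiratory complexes II, III, IV and V. They were chosen by name: a peak belonged to a gene when its deposited Ensembl identifier mapped to 1 of 40 listed symbols in GENCODE release 29. All 40 had peaks, out of 20048 gene entries with a peak in the series, of which 13209 were annotated as protein-coding. Complex II contributed 4 genes (SDHA, SDHB, SDHC and SDHD) and complex III contributed 9 (UQCRC1, UQCRC2, UQCRFS1, UQCRB, UQCRH, UQCRQ, UQCR10, UQCR11 and CYC1). Complex IV contributed 11 (COX4I1, COX5A, COX5B, COX6A1, COX6B1, COX6C, COX7A2, COX7A2L, COX7B, COX7C and COX8A). Complex V contributed 16: ATP5F1A, ATP5F1B, ATP5F1C, ATP5F1D, ATP5F1E, ATP5PB, ATP5PD, ATP5PF, ATP5PO, ATP5MC1, ATP5MC2, ATP5MC3, ATP5ME, ATP5MF, ATP5MG and the inhibitor gene ATP5IF1.

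The series held 2 libraries of a single group labelled TRACER, and the labels do not spell that word out. Both were made from HEK293T, an established human embryonic kidney cell line, grown with doxycycline at 3 ug/mL for 24 hours, and RNA was taken from the cytoplasm. Doxycycline is often used to induce a transgene, and no transgene is named in the labels. The series set out to map sites in RNA linked to CCR4-NOT, a deadenylase complex, which shortens the poly(A) tails of messages. No untreated or input library was part of the data used here, so peak reads mix how much of an RNA was in the cells with how often it was captured, and these cannot be told apart. Nothing in the labels states that each replicate was its own culture, and the SD over libraries may reflect technical spread alone.

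Complex II, succinate dehydrogenase, feeds electrons from the citric acid cycle into the respiratory chain. Complex III passes electrons from ubiquinol to cytochrome c, complex IV (cytochrome c oxidase) passes them on to oxygen, and complex V (ATP synthase) uses the resulting proton gradient to make ATP. Complex II is wholly encoded in the nucleus. The other complexes combine nuclear-encoded subunits, which are translated in the cytoplasm and imported, with subunits encoded by mitochondrial DNA. Many of the nuclear messages are short, with short untranslated regions (UTRs).

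The sites with the strongest signal show what the peaks of these genes look like. The lines below give 30 bases of the GENCODE 29 transcript around the summit of replicate 1, read 5′ to 3′ on the message, with the interval that the deposited file marks as the summit in capitals. Coordinates are 1-based on GRCh38, and a window over an exon junction spans the intron in its coordinates. The first set holds the strongest coding sequence (CDS) peak repeated in both libraries. It covers the genes with the most reads, and the gene with the highest 3′ UTR share, in each complex. UQCRB also belongs to that set by its reads, and its sequence is not shown.
SDHA, exon 8, chr5:233628-235155, + strand, over a junction: ggagatccgagaagGAAGaggctgtggccc
SDHC, exon 3, chr1:161328413-161328442, + strand: ccacggccaaagaaGAGAtggagcggttct
SDHD, exon 3, chr11:112088949-112088978, + strand: tttgaatccttgctCTGCgatggactattc
UQCRC1, exon 3, chr3:48605820-48605849, - strand: tgtggattgatgtTGGCagccgttttgaga
UQCRH, exon 1, chr1:46303758-46303787, + strand: tagccagacatgggACTGgaggacgagcaa
COX7C, exon 2, chr5:86619364-86619393, + strand: ttcagtggaaaacaAGTGgtcgttactagc
COX6A1, exon 2, chr12:120438450-120438479, + strand: ctgaagtcgcaccaCGGAgagcacgagaga
COX4I1, exon 4, chr16:85805775-85805804, + strand: ggggctcgaacgagTGGAagacggttgtgg
COX7B, exon 1, chrX:77899556-77899585, + strand: gtttcccttggtcaAAAGcgcactaaatcg
ATP5F1A, exon 5, chr18:46089857-46089886, - strand: tccagttggtgagGAGCtgttgggtcgtgt
ATP5F1B, exon 4, chr12:56643853-56643882, - strand: aaggttgtcgatcTGCTagctccctatgcc
ATP5IF1, exon 1, chr1:28236201-28236230, + strand: ggcggcgcggacgtGGCTtggcgtgtgggg
ATP5MG, exon 3, chr11:118407092-118409023, + strand, over a junction: gttaaggaagctgtGCTGaatggtttggtg

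The second set holds UTR peaks that lay in the UTR on the representative transcript itself and repeated in both libraries. They are shown because part of the 3′ UTR signal described further on depends on the choice of transcript.
SDHD 3′ UTR, exon 4, chr11:112095691-112095720, + strand: ttgttattttcgcaCAATgggaatctctaa
UQCRQ 3′ UTR, exon 3, chr5:132867629-132867658, + strand: tggaagaggagtctGCATtgtagtgtctca
COX6A1 3′ UTR, exon 3, chr12:120440575-120440604, + strand: agcactggtttggaCCGTtactctgcacat
COX7A2L 3′ UTR, exon 3, chr2:42351072-42351101, - strand: aggaagatatgaaGATGatgttttggtttg
COX7C 5′ UTR, exon 1, chr5:86618002-86618031, + strand: gccatttcatctgtCCTCattctctgcgcc
UQCRQ 5′ UTR, exon 1, chr5:132866653-132866682, + strand: ccggatcggtgactGTGGagggcgagctga
COX8A 5′ UTR, exon 1, chr11:63974634-63974663, + strand: accttgggctacggCTGAccgttttttgtg

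The first comparison asked how much signal each gene carried. The 40 genes held 373 peaks with 8921 reads in replicate 1 and 391 peaks with 9336 reads in replicate 2, which was 0.954% and 0.887% of the reads under protein-coding genes. Their median peak held 17 reads in each library, against 5 and 6 reads for peaks of all protein-coding genes. Every gene had a peak that overlapped a peak of the other library by at least 1 nt (40 of 40). The same held for 76.2% of 13209 protein-coding genes, and for 100% of the 3159 protein-coding genes with a mean of at least 84 reads, the mean of the gene with the fewest here. The latter genes are called genes of like depth from here on. The 40 of 40 is therefore a count that the depth alone already gave in the other genes.

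Among complex II genes, SDHA, the flavoprotein that oxidises succinate, had the most reads, with 186 in replicate 1 and 200 in replicate 2. SDHC, a membrane anchor, had 120 and 156 reads, and SDHD, the other anchor, had 98 and 141. SDHB, which carries the iron-sulfur clusters, had 99 and 103. Complex II had the fewest reads per gene, with a median of 129 ± 27.6 (SD, n = 2 libraries, as for every ± here).

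Among complex III genes, UQCRB, which binds ubiquinone, had 379 and 393 reads. UQCRH, the acidic hinge subunit that helps cytochrome c to dock, had 386 and 313. The core subunit gene UQCRC1 had 263 and 272 reads. CYC1, which encodes cytochrome c1, had the largest gap in reads between libraries in this complex, with 177 and 286. The remaining genes of complex III ranged down to UQCR10, with 83 and 99. The median of complex III was 183 ± 8.49 reads.

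Among complex IV genes, COX7C had 419 and 427 reads, COX6A1 had 391 and 331, and COX4I1 had 290 and 313. All encode small structural subunits around the mitochondrially encoded catalytic core. COX7A2L, which acts in joining complexes III and IV into supercomplexes, had 129 and 167, and COX7B had 130 and 132. The lowest mean in complex IV was that of COX5A, with 131 and 124. The median of complex IV was 206 ± 12.7 reads.

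In complex V the genes of the catalytic head subunits alpha and beta had the most reads of all 40: ATP5F1A had 637 and 614 and ATP5F1B had 549 and 601. Without intron peaks at small RNA genes, described further on, they had 469 and 511 and 468 and 530. ATP5IF1, which encodes the inhibitor that blocks the enzyme from running backwards, had 466 and 525. COX7C of complex IV came next over all 40 genes, and within complex V the next was ATP5MC3, with 256 and 323. The lowest was ATP5F1E, the epsilon subunit, with 91 and 77 reads. The median of complex V was 192 ± 13.1 reads.

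**Figure D1:**
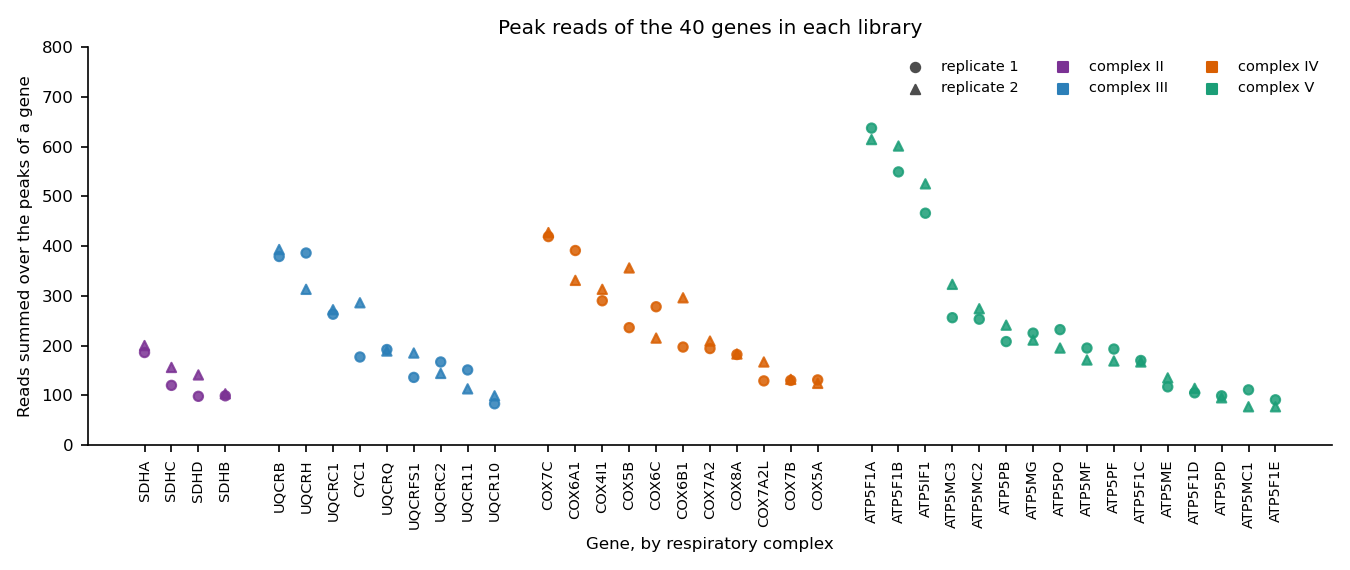
Reads summed over the peaks of each gene (y axis, reads) in replicate 1 (circles) and replicate 2 (triangles), by complex and in falling order within it (x axis). ATP5F1A, ATP5F1B and ATP5IF1 stand above the other genes in both libraries, and no complex II gene passes 200 reads.

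The libraries gave nearly the same order of genes (Spearman 0.933 across the 40 genes, and 0.853 across 3157 genes of like depth that had a coding transcript model). Genes are not independent replicates, so this is a description. Between libraries, 2 of 40 genes held a share of coding reads over 1.5 times higher in replicate 1: ATP5MC1, with 111 and 77 reads, and UQCR11, with 151 and 113. In genes of like depth the percentage was 3.48%, and 8.75% among 8890 genes with at least 10 reads in each library. No gene of the 40 was over 1.5 times higher in replicate 2, against 6.93% and 15.6%.

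Because a long message can hold more peaks, levels between genes were compared per length. Peak reads per kb of the representative transcript had a median of 79.7 ± 9.58 in complex II, 135 ± 3.21 in complex III, 401 ± 58.8 in complex IV and 261 ± 18.1 in complex V, against 62.1 ± 6.52 in genes of like depth. With the longest transcript on ties, the rule tried first, the median fell to 267 in complex IV and 151 in complex V, and over all 40 genes it fell from 231 to 141. ATP5IF1 was the highest of the 40, with 943 and 1063 reads per kb. SDHC was the lowest, with 8.85 and 11.5, on a representative transcript of 13566 nt whose long 3′ UTR held few reads. Across the 40 genes, reads per kb fell as transcripts got longer (Spearman -0.77), and this was so for genes of like depth too (-0.83). Length is the divisor of this measure, so such a fall is partly built in. Reads themselves followed CDS length only weakly (Spearman 0.153 and -0.111). The order of the complexes was also the reverse of their median transcript lengths: 1914.5 nt in II, 1240 in III, 666 in IV and 721 in V. The points share library and depth, and no test was made.

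The CDS gave a measure that is not divided by UTR length. It still depends on the transcript models, since a summit in the 3′ UTR of any coding transcript did not count as CDS. COX7B thus had 70.0 and 181 CDS reads per kb, though peaks of any assignment covered 100% and 87.2% of its CDS. Reads of CDS peaks per kb of CDS had a median of 149 ± 26.0 in complex II, 297 ± 51.1 in complex III, 516 ± 50.8 in complex IV and 346 ± 4.83 in complex V. The median was 66.1 ± 10.2 over genes of like depth, and 40 of 40 genes lay above it in each library. Complexes III and V differed by less than the SD of complex III, while complex IV lay above all others and complex II below all others in both libraries. COX7C was the highest, with 1516 and 1526 CDS reads per kb, followed by UQCRH with 1348 and 1134. COX7A2L had the lowest mean, with 72.5 and 98.6, and SDHA followed with 85.2 and 98.7.

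**Figure D2:**
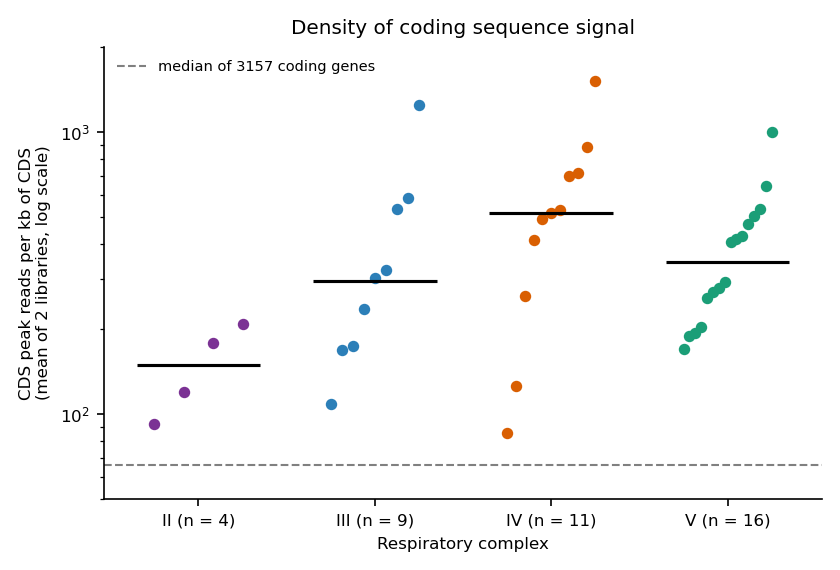
CDS peak reads per kb of CDS (y axis, log scale, mean of both libraries) of each gene by complex (x axis). Points are genes, bars are the medians of 149, 297, 516 and 346, and the dashed line is the median of 66.1 over genes of like depth; every point lies above it.

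Short messages had high density in general, so the genes were also set beside other short ones. Of the 40, 24 had a representative transcript under 1000 nt, as did 438 of the genes of like depth; this limit was chosen after the values were seen. Within this class the median CDS density was 471 and 496 reads per kb for the respiratory genes and 260 and 282 for the others. Peaks of any assignment covered a median of 61.7% and 63.2% of the CDS in the respiratory genes and 41.7% and 43.8% in the others. The class includes the 24 genes themselves. The abundance of these messages was not measured, and its part in the difference was not tested.

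The second comparison asked where on the messages the peaks lay. A peak was assigned by its summit, with the 3′ UTR of any protein-coding transcript taken first, then the CDS, the 5′ UTR, non-coding exons and introns. All 40 genes had a repeated CDS peak (40 of 40, against 55.4% of all protein-coding genes and 91.8% of genes of like depth). A repeated 3′ UTR peak was found for 21 of 40 genes, against 42.6% of all protein-coding genes and 73.9% of genes of like depth. By complex these were 2 of 4 in complex II, 5 of 9 in complex III, 6 of 11 in complex IV and 8 of 16 in complex V. A repeated 5′ UTR peak was found for 16 of 40 genes, against 20.5% and 41.9%: none of 4 in complex II, 1 of 9 in complex III, 7 of 11 in complex IV and 8 of 16 in complex V.

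**Figure D3:**
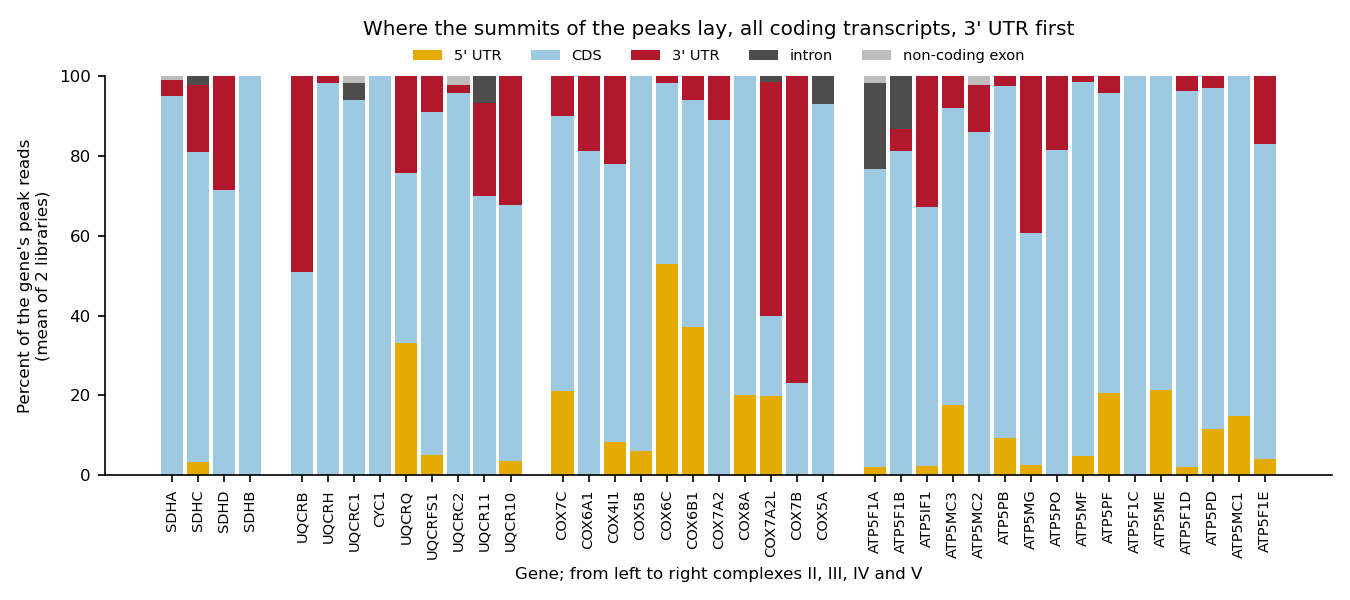
Percent of each gene's peak reads (y axis, mean of both libraries) with the summit in the 5′ UTR, CDS, 3′ UTR, introns or non-coding exons, in colours, for the 40 genes (x axis) by complex. CDS fills most of nearly every bar; COX7B, COX7A2L and UQCRB stand out by the 3′ UTR, COX6C by the 5′ UTR and ATP5F1A by the intron.

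CDS held a median of 80.6% and 82.8% of a gene's peak reads in replicates 1 and 2, against 57.6% and 60.6% in genes of like depth. Among the short messages defined above the gap was smaller: 79.8% and 79.3% in the respiratory genes, against 69.5% and 70.8% in all 438 genes. For SDHB, CYC1 and ATP5F1C, the gamma subunit of ATP synthase, every peak read lay in the CDS in both libraries. UQCRC1 had 94.3% and 93.8% there. The remaining genes were spread widely. COX7A2L had the lowest mean, with 19.4% and 20.4%, and COX7B had 13.1% and 33.3%.

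The signal was also broad within the CDS. Peaks of any assignment, including those with a summit in a UTR, covered a median of 57.0% ± 2.34 of the CDS, against 22.0% ± 1.29 in genes of like depth, and 40 of 40 genes lay above the latter in each library. By all peaks together, ATP5F1E was covered over 99.4% and 96.2% of its CDS and UQCRB over 95.5% and 97.0%. UQCRC1, with 23.8% and 27.3%, was among the least covered. CDS summits were spread along the CDS much as in genes of like depth: 36.6% of them lay in the third nearest the start codon in each library, against 36.4% and 36.0%. Summits within 50 nt of the start codon made up 14.7% and 15.2%, against 6.33% and 6.20%. With CDS as short as 156 nt, a larger part of each message lies that close to a codon boundary, and this was not corrected for.

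The map of peaks along 6 messages shows the same pattern gene by gene. In UQCRH the strongest peak crossed the start codon, with 108 and 83 reads and a summit 6 nt after its first base, at the capitals in the sequence above. COX7C was tiled from the 5′ UTR through the CDS: its strongest peak held 143 and 97 reads with a summit 101 nt into the CDS. The 5′ UTR peak at the sequence shown above held 98 reads in replicate 1. The peak of replicate 2 paired with it held 43 reads, with a summit 48 nt away and outside that sequence. Another 5′ UTR peak of replicate 2, with 37 reads, lay over the sequence. In ATP5IF1 the strongest peak held 144 and 166 reads, with its summit 32 nt after the first base of the start codon. SDHD had its strongest peak in the CDS, with 38 and 27 reads, and a run of small peaks far into the 3′ UTR.

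**Figure D4:**
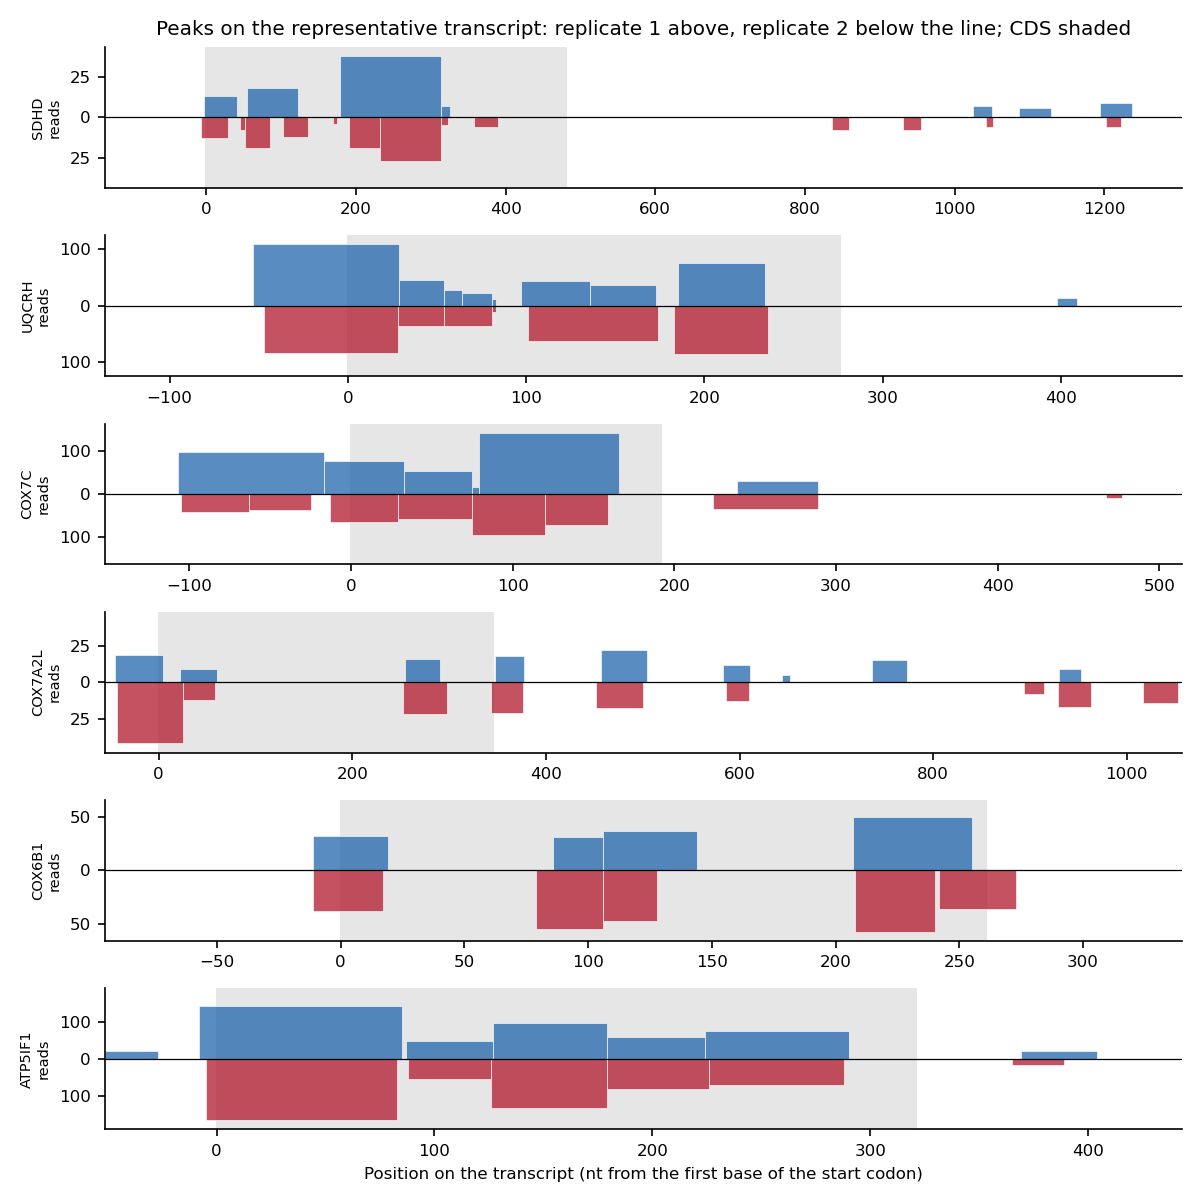
Peaks of 6 genes along the representative transcript (x axis, nt from the first base of the start codon) with reads per peak (y axis), replicate 1 drawn upward and replicate 2 downward, and the CDS shaded. UQCRH, COX7C, COX6B1 and ATP5IF1 carry most reads over the CDS and the start codon, while COX7A2L carries most over the 3′ UTR.

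The strongest repeated region of a gene held 10.3% to 43.9% of its reads (median 24.2%). It was assigned to the CDS for 34 of the 40 genes. For UQCRB and COX7B it was assigned to the 3′ UTR, though these summits lay in the CDS of the representative transcript. For COX6C and COX7A2L it lay in the 5′ UTR. It lay in an intron for ATP5F1A, and was assigned to different regions in the libraries for ATP5MG. Its summits lay within 10 nt of each other in both libraries for 36 of 40 genes. For 6 genes the summit was within 50 nt of the start codon, and for 8 within 50 nt of the stop codon. Among the latter was UQCRFS1, the Rieske iron-sulfur protein, with a summit 7 nt before the last base of the stop codon. The strongest regions of the other leading genes were of moderate size. COX6A1 had 81 and 68 reads, COX4I1 73 and 69, ATP5F1B 57 and 62, UQCRC1 38 and 47, SDHA 23 and 19 and SDHC 15 and 30.

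The share of reads in the 3′ UTR was low in the median and uneven between genes. It was 6.29% ± 0.308 over the 40 genes, against 19.3% ± 0.706 in genes of like depth, and 28 of 40 genes lay below the latter in each library. By complex it was 10.3% ± 1.75 in complex II, 9.01% ± 0.259 in complex III, 9.66% ± 3.54 in complex IV and 4.85% ± 0.821 in complex V. Complexes II, III and IV differed by less than the SD of complex IV. Among the short messages defined above, the share was 6.61% and 7.47% in the respiratory genes and 6.15% and 5.93% in all 438 genes, which are close to each other.

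In each complex 1 gene led. SDHD had 29.6% and 27.7% of its reads in the 3′ UTR, UQCRB 48.5% and 49.9%, COX7B 86.9% and 66.7%, and ATP5MG, a membrane-sector subunit of ATP synthase, 39.1% and 39.3%. COX7A2L came second overall with 62.8% and 54.5%. In all, 15 of 40 genes had over 10% in both libraries, a count not made in other genes. The median of genes of like depth, 19.8% and 18.8%, was itself above 10%. The count is therefore not read as a trait of the 40 genes. No 3′ UTR read in either library was seen for 10 of 40. The same held for 482 of 3157 genes of like depth and for 4631 of 13202 coding genes with a peak.

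Part of this share came from positions that are 3′ UTR in 1 coding transcript and CDS in another. On the representative transcript alone, COX7B fell from 86.9% and 66.7% to 0% and 7.58%, COX4I1 from 23.8% and 20.1% to 0% in each library, and UQCR10 from 36.1% and 28.3% to 0% in each. ATP5IF1 went from 33.3% and 32.6% to 4.29% and 3.43%. UQCRB went to 26.1% and 26.7%, ATP5MG to 20.9% and 16.1% and SDHD to 22.4% and 19.9%. COX7A2L kept 62.8% and 54.5%, COX6A1 23.8% and 13.6%, UQCRQ 26.0% and 22.8%, and UQCR11 21.9% and 24.8%. Of the 15 genes over 10%, 9 stayed over 10% in both libraries. Summed over the 40 genes, 683 of 1226 3′ UTR reads in replicate 1 and 597 of 1176 in replicate 2 lay in the 3′ UTR of the representative transcript. The median over the 40 genes was then 1.72% ± 2.43, against 11.9% ± 0.485 in genes of like depth. It was 10.3% ± 1.75 in complex II, 2.10% ± 2.96 in complex III, 0% in complex IV and, in complex V, 1.55% in replicate 1 and 0% in replicate 2. The order of the complexes thus rested on the transcript model.

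Counting the UTRs of transcripts annotated as targets of nonsense-mediated decay raised the shares. The median became 13.1% ± 0.0347, against 35.2% and 33.9% in genes of like depth. UQCRC1 moved the most, from 0% to 90.9% and 97.1%, and ATP5F1A moved from 0% to 66.2% and 74.9%, at positions otherwise counted mainly as CDS. The respiratory genes had a lower median than genes of like depth under all of the transcript models used, and the files do not say which transcript a read came from.

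**Figure D5:**
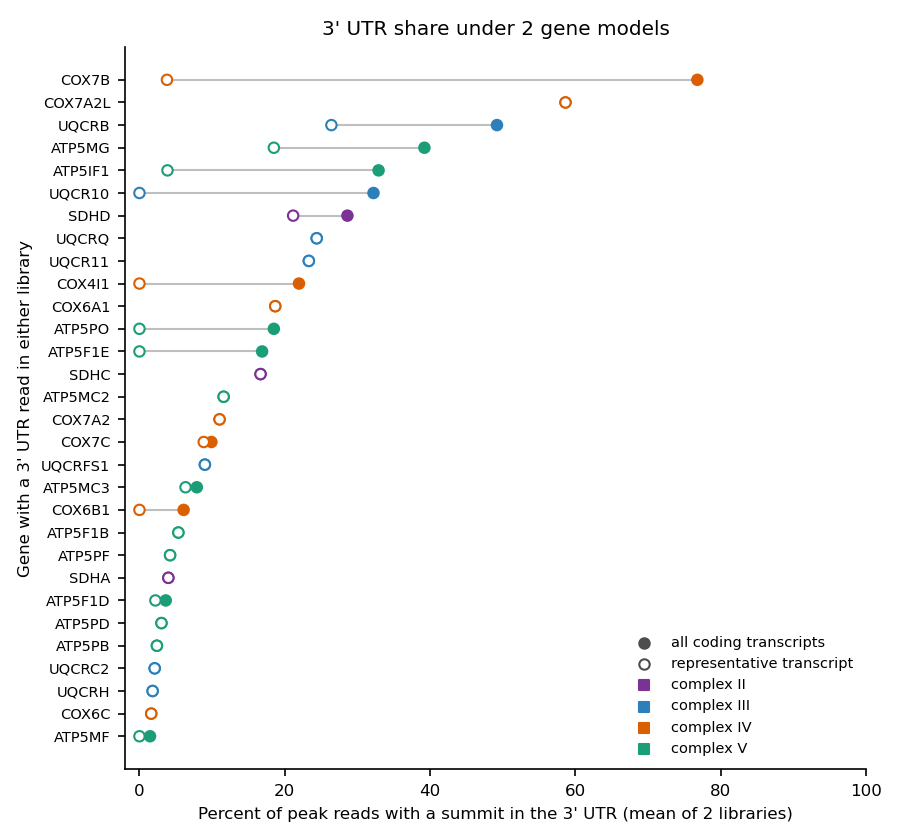
Percent of peak reads with a summit in the 3′ UTR (x axis, mean of both libraries) for the genes with such a read (y axis), with all coding transcripts (filled) and with the representative transcript alone (open), coloured by complex. COX7B moves from 76.8% to near 0, while COX7A2L, UQCRQ and COX6A1 do not move.

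UQCRB, SDHD and ATP5MG had a 3′ UTR share above the median of genes of like depth under each model. COX7A2L did so too, and had the highest share on the representative transcript. Its representative transcript carried 3′ UTR peaks of 22 and 18 reads at the sequence shown above, 18 and 21 reads just after the stop codon, 12 and 13 reads further on, and 9 and 17 reads near the end. Its CDS held only 19.4% and 20.4% of the reads. In SDHD the 3′ UTR peak shown above held 9 and 6 reads, so its 3′ UTR share was made of many small peaks. COX6A1 had 45 and 26 reads at its 3′ UTR site, and UQCRQ, a small complex III subunit, had 26 and 22.

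The share of reads in the 5′ UTR ranged from 0% to over 50% between genes. COX6C had 52.2% and 53.5% of its reads there, COX6B1 40.1% and 34.1%, UQCRQ 40.1% and 25.9%, COX8A 26.9% and 13.1%, COX7C 23.4% and 18.7%, and ATP5ME 19.7% and 23.0%. Over 10% in both libraries was seen for 10 of the 40 genes, a count not made in other genes. The median share was 2.85% and 0% over the 40 genes, against 2.74% and 2.62% in genes of like depth. Among the short messages defined above it was 6.78% and 5.64% in the respiratory genes, against 0.701% and 0% in all 438 genes. No 5′ UTR read in either library was seen for 17 of 40, among them UQCR11, UQCRH, COX6A1, COX7A2 and COX7B. The same held for 1215 of 3157 genes of like depth, a similar share. At the 5′ UTR sequences shown above, the peak of UQCRQ held 44 and 33 reads and that of COX8A 49 and 24. The strongest 5′ UTR peak of COX6B1 held 47 and 63 reads, in a first exon that is not part of the representative transcript, so the map does not show it. Summed over genes, 5′ UTR reads were 15.7% ± 1.29 of the reads in complex IV, 5.16% ± 0.380 in complex V, 3.76% ± 1.34 in complex III and 0.833% ± 1.18 in complex II. In genes of like depth the value was 8.04% ± 0.129.

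Sequence motifs were searched in 51 nt around repeated summits, on the sense strand. The Pumilio element UGUANAUA, which is bound by Pumilio proteins that recruit CCR4-NOT, was in 0 of 38 3′ UTR windows in each library. A count of 0 allows up to 7.89%, and the element was in 6.46% and 6.64% of 3′ UTR windows of all coding genes, so its absence could not be told from that rate at this depth. Its core UGUA, which every full element also contains, was in 28.9% and 26.3% of windows, against 43.9% and 44.2%. Some of these 3′ UTR windows, such as those of COX7B, lay in the CDS of the representative transcript. In CDS windows of all coding genes UGUA was in 13.3% and 13.2%. The part of this mix in the difference was not tested. The representative 3′ UTRs of the 40 genes held 4 full elements, 2 in SDHC and 1 each in ATP5F1E and ATP5PB. None lay under a repeated peak, and 1 of the SDHC elements lay under a peak of 3 reads in replicate 1. The AU-rich core AUUUA was in 2 of 38 windows in each library (5.26%), against 9.06% and 9.15%. The motif CCUCCC was in 3 and 4 of 38 windows (7.89% and 10.5%), against 0.893% and 0.884%. Counts this small are imprecise, and the 38 windows came from only 21 and 22 genes, so some genes gave several. In CDS windows of the 40 genes CCUCCC was in 0 of 253 and 1 of 262. The reversed element AUANAUGU, searched for comparison, was in 1 and 0 of the 3′ UTR windows.

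Intron signal was found for 7 of the 40 genes, a count not made in other genes. Summed over genes, intron reads were 2.72% ± 0.723 of the reads, against 8.40% ± 1.09 in genes of like depth. Only the summit decided the region, and some of these peaks also reached into coding exons, as in COX5A, SDHC and UQCR11. In ATP5F1A the strongest repeated peak of the gene entry, with 168 and 103 reads, lay in an intron at chr18:46089322-46089370, within the position of the lysine transfer RNA gene TRK-CTT6-1 in the RefSeq table of the same build. It made up 26.4% and 16.8% of the gene's reads. The table gives no strand, so a match to the transfer RNA itself was not tested. In ATP5F1B, intron peaks with 50 and 39 reads and with 31 and 32 reads lay at SNORD59B and SNORD59A, box C/D small nucleolar RNAs hosted in its introns. Without these peaks ATP5F1A and ATP5F1B had reads close to those of ATP5IF1, as given above.

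Several genes have close copies, and a read may map to more than 1. Copies named for 27 of the 40 genes numbered 105, counting UQCRHL, and 48 of them had reads, 1183 and 1298 in all. Without UQCRHL there were 104, of which 47 had reads, 960 and 1093 in all. UQCRHL, an intronless copy of UQCRH annotated as protein-coding, held 223 and 205 reads, against 386 and 313 for UQCRH. COX7CP1 held 115 and 150, against 419 and 427 for COX7C. Copies of SDHA held 69 and 102 reads, against 186 and 200 for SDHA. Set against the reads of the gene itself, copies held 39.6% and 42.7% for ATP5MG, 34.6% and 35.7% for UQCRFS1 and 27.5% and 49.4% for ATP5F1E. The files do not say how many reads were shared, so the values of all genes with such copies are uncertain to that extent. ATP5MC1, ATP5MC2 and ATP5MC3 encode the same mature c subunit of the rotor ring, and their last coding stretches were 81.1% to 89.0% identical, with identical runs of at most 17 nt. They had 111 and 77, 253 and 274, and 256 and 323 reads. Peaks of ATP5MF, ATP5PO and SDHD were also listed under overlapping gene entries. For ATP5MF this was 134 of 195 and 114 of 171 reads under a readthrough entry with PTCD1.

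The other genes of the pathway came from a list chosen with earlier results known. None of 6 tissue-restricted isoform genes (COX4I2, COX6A2, COX6B2, COX7A1, COX7B2 and COX8C) had a peak, while the widely expressed counterparts did. Of 40 assembly factor genes, 38 had a repeated peak and 19 a repeated 3′ UTR peak, against 76.2% and 42.6% of all protein-coding genes. Their median was 51.3 reads. The 3 other pathway genes with the most reads were FMC1, which acts in complex V assembly, with 292 and 253, CYCS, which encodes cytochrome c, with 162 and 190, and NDUFA4, a subunit now placed in complex IV, with 206 and 141.

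Marker genes were checked against the labelled line. All 8 genes of a HEK293T list had reads, led by VIM with 494 and 517, although KRT8 had 0 and 5. No gene of a hepatocyte list (0 of 3) or of a blood list (0 of 4) had any. In a muscle list 3 of 4 had reads, with summed reads of 76 and 99, mainly ACTA1 with 61 and 85, while TNNT2 had none. Actin genes are alike in sequence, and the part of reads from other actins was not tested. Over the series, replicate 1 had 96682 distinct peaks with 1585451 reads and replicate 2 had 105125 with 1663904.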

How the data were processed

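Small-RNA libraries of cytoplasmic RNA from 2 replicates of 1 group were used, with 1 peak list per library. Software named in the submitters' processing notes was STAR 2.7.11, UMI-tools 1.1.4 and cutadapt 4.2, on GRCh38, with no role stated. Per the names of the deposited files, CLIPper called the peaks after filters on score, mismatches and loci, in a version not given in the sources used here. Each peak's deposited p-value carries no stated adjustment. The deposited read count in each peak name is a whole number of at least 3, not normalised. A read can count in several peaks, genes and loci, so sums over peaks are not depth, and total depth is unknown. No deposited columns belonged to other samples.

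Gene models were GENCODE 29. A summit was the middle of the deposited thick interval, placed by transcripts of its own gene. UTR and CDS came from protein-coding transcripts only: shares with nonsense-mediated decay transcripts were also computed, and the choice was made after both had been seen. The representative transcript was complete, best by APPRIS, CCDS and CDS length, then the shortest. The longest was tried first and replaced after the transcript lengths and reads had been seen. Percentages needed at least 10 reads. With 1 group and no control, no test was made; values are given per library and as mean ± SD. The genes, lists and comparisons were chosen with earlier results of these data known. All genes are named. Full values were given for the 3 genes with the most reads and the gene with the highest 3′ UTR share per complex, and for the 3 other pathway genes with the most reads. COX7A2L and the UTR sites shown were chosen after their values were seen, as were the background of like depth, the limit of 1000 nt and the 1.5-fold limit. Region assignment and overlap were tested on simulated data, on genes with a single transcript. The choice between regions of different transcripts was therefore not tested. Scripts ran in Python 3.11.15 (pandas 2.3.3, numpy 2.4.6, matplotlib 3.10.9, scipy 1.17.1).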

Additional observations from a re-analysis of the deposited data

How the results depend on the processing

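No paired analysis was possible because both libraries belong to 1 group. The 4 counts of genes with a repeated peak stayed within 1.5 times under each alternative run: 40 for any peak, 38 to 40 for CDS (39 with nonsense-mediated decay transcripts), 16 to 27 for 3′ UTR and 12 to 16 for 5′ UTR. Over all results, 78 of 115 values stayed within the SD of the libraries or within 1.5 times, and 37 moved. The 78 include settings that could not move. With 2 libraries, the value of either alone always lies within the SD of their mean. Every gene also passed the stricter limit of 20 reads, so that setting changed nothing. An SD from 2 libraries is itself imprecise. Leaving out either replicate gave a median 3′ UTR share of 6.07% to 6.50% over all genes, 9.08% to 11.6% in complex II, 8.82% to 9.19% in complex III, 7.16% to 12.2% in complex IV and 4.27% to 5.43% in complex V.

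For the median 3′ UTR share, peaks with p at or under 1e-05 gave 8.03% in complex II, 9.51% in III and 2.27% in V. Peaks of at least 10 reads gave 3.91% over all genes, 2.61% in II, 9.51% in III and 1.23% in V. With CDS before 3′ UTR the shares were 3.06% over all genes, 2.10% in III, 0% in IV and 3.44% in V. On the representative transcript they were 1.72%, 2.10% in III, 0% in IV and 0.777% in V. With nonsense-mediated decay transcripts, added after seeing the data, they were 13.1% over all genes, 36.7% in II, 25.4% in III and 6.92% in V. For these 3 models the change follows from which positions count as 3′ UTR; for the others the cause was not tested.

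For median reads per kb, peaks with p at or under 1e-05 gave 61.9 in II and 127 in III. Peaks of at least 10 reads gave 53.0 in II, 116 in III and 242 in V. Leaving out peaks listed under several genes gave 209 over all genes, 68.3 in II and 204 in V. Alternatives added after seeing the data were the following. Without intron peaks on small RNA genes complex V was at 240.5. Per kb of CDS the medians were 321 over all genes, 149 in II, 297 in III, 516 in IV and 346 in V. With the longest transcript on ties they were 141 over all genes, 111 in III, 267 in IV and 151 in V, so complex IV stayed highest and the gap between III and V narrowed. Complex II was lowest under each of these settings. Depth limits small shares: with 84 reads in a gene, a few reads move a share by several percent, and peaks under 3 reads were not listed.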
